A study of Mus musculus with 18 samples.

Results

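Isl1, Mef2c, Fgf10, Osr1, Gata4, Hand2, Wnt5a, Wnt11, Sema3c and Nkx2-5 are regulators of the second heart field, and their transcripts were read in an allelic series of Tbx1. The genes were taken as a given list, and every probe set annotated with 1 of these symbols alone was used, which gave 22 of the 45037 probe sets on the array for 10 of the 18193 genes it names. The 18 arrays (Affymetrix oligonucleotide arrays) each hold RNA of a single whole embryo at embryonic day 9.5, and every one of the 9 genotypes is represented by 2 embryos. The background of all embryos was a mix of 129SvEv and C57Bl/6. The genotypes combined the wild-type Tbx1 allele (+), the targeted alleles Neo2 and Neo, and the allele Tbx1-, written as - below. WT embryos, the controls, had 2 wild-type alleles. Neo2/+, Neo/+ and +/- embryos had 1, and embryos with 0 were -/-, Neo/Neo, Neo2/-, Neo2/Neo or Neo2/Neo2. All values below are RMA signals on the log2 scale, so a difference of 1 is a doubling, and no detection call accompanies them, so a dim signal cannot be told from background.

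The second heart field is a population of pharyngeal and splanchnic mesoderm that adds cells to both poles of the forming heart tube and builds the outflow tract and right ventricle. Tbx1, a T-box transcription factor gene, is expressed in part of this field and in the pharyngeal endoderm and mesoderm, and its loss shortens the outflow tract. None of the genes of the list is restricted to the second heart field at this stage. Isl1 also marks motor neurons and cranial ganglia, Fgf10, Wnt5a, Osr1 and Hand2 are also expressed in the limb buds or the adjoining mesoderm, and Gata4 and Nkx2-5 are also expressed in the heart tube itself. In whole embryos, a smaller number of expressing cells and less transcript per cell cannot be told apart.

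Array medians lay between 5.73 and 5.94. An embryo of +/- and one of -/-, each labelled replicate 1, gave arrays unlike the rest (median correlations of 0.975 and 0.985, against 0.991 to 0.995 for the others), and results that change without them are given both ways. Sex, called from Xist and Y-linked transcripts, was female for each embryo of WT and of -/-, male for each of Neo2/Neo2 and of Neo/Neo, and mixed within the other genotypes. Of the markers of tissues of a whole embryo, a mean signal above the median probe set was found for 15 of 16 cardiomyocyte, 10 of 10 endothelial, 8 of 8 erythroid, 12 of 12 neural progenitor and neuron, 11 of 12 limb bud, 8 of 10 neural crest, 8 of 11 gut endoderm, 7 of 11 motor neuron and cranial ganglion, and 3 of 6 intermediate mesoderm genes.

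Tbx1 itself was read at a single probe set. Its signal was 6.59 ± 0.06 (SD, n = 2) in WT, 6.62 ± 0.00 on the arrays labelled Neo2/Neo2, 5.66 ± 0.02 in Neo2/Neo, 5.71 ± 0.13 in Neo2/-, 5.12 ± 0.11 in Neo/Neo and 5.07 ± 0.13 in -/-. The heterozygotes had 6.54 ± 0.07 in Neo2/+, 6.30 ± 0.07 in Neo/+ and 6.37 ± 0.34 in +/-. Tbx1 fell in Neo/Neo and in -/- (limma, adjusted p = 0.00286 and 0.00303), which gave a span of 1.65 over the 18 embryos along which the other genes could be read. The Neo2/Neo, Neo2/-, Neo/Neo and -/- means all lay below every array median (5.73 to 5.94). The low end of this span, these genotypes included, thus cannot be told from background. A slope along it is per unit of signal and not of allele dose.

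The promoters of 4 starts are shown, since the results below turn on Isl1, Nkx2-5 and Wnt11. The Mef2c start shown is 1 of several of that gene, and the only start of a listed gene with a T-box half-site. Each promoter runs from 250 bases before to 50 bases after a transcription start in RefSeq (GRCm38.p6). Of the 10 genes, 7 had an entry, while Osr1, Gata4 and Wnt5a had none. Capitals mark matches on either strand to the T-box half-site AGGTGT, the NK2 site CAAGTG or the GATA site AGATAA, which share no overlapping position here. Isl1 lies at chr13:116309639-116309938 on the minus strand, Nkx2-5 at chr17:26841516-26841815 on the minus strand, Wnt11 at chr7:98834862-98835161 on the plus strand and the Mef2c start at chr13:83523406-83523705 on the plus strand.
Isl1: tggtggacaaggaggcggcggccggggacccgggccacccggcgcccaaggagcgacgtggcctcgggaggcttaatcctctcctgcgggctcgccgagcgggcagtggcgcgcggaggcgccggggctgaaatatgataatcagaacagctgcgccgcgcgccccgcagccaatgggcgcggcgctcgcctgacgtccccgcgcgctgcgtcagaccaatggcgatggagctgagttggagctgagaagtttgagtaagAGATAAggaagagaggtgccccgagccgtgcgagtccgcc
Nkx2-5: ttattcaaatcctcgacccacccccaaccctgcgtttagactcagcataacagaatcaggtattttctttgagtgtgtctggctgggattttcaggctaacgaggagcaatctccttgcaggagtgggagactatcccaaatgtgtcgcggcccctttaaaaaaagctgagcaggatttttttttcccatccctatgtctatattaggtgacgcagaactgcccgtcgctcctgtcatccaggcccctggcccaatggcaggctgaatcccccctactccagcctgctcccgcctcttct
Wnt11: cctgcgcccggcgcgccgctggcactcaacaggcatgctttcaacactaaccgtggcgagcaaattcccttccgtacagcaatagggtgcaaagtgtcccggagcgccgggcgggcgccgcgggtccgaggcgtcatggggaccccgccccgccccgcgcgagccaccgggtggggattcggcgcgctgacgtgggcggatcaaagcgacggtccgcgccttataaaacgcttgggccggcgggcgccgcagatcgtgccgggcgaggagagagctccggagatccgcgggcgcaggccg
Mef2c: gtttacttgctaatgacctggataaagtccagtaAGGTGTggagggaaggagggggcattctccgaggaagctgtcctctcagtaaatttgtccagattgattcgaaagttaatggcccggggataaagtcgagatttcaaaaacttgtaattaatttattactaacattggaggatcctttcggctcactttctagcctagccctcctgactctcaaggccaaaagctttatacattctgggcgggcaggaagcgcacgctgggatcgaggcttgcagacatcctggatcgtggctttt
Among 32851 promoters of this length, 13.7% held the T-box half-site, 13.6% the NK2 site and 11.2% the GATA site. Isl1 held 1 GATA match, this Mef2c start 1 T-box match, and Nkx2-5 and Wnt11 held no match to any of the 3. Of the Mef2c starts not shown, that at chr13:83503784-83504083 held 1 NK2 match and that at chr13:83573357-83573656 none. The Wnt11 start not shown, at chr7:98838595-98838894, held none. Hand2 held 1 NK2 and 1 GATA match, Sema3c 1 NK2 match and Fgf10 none. A match describes letters in the window and says nothing about binding.

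**Figure D1:**
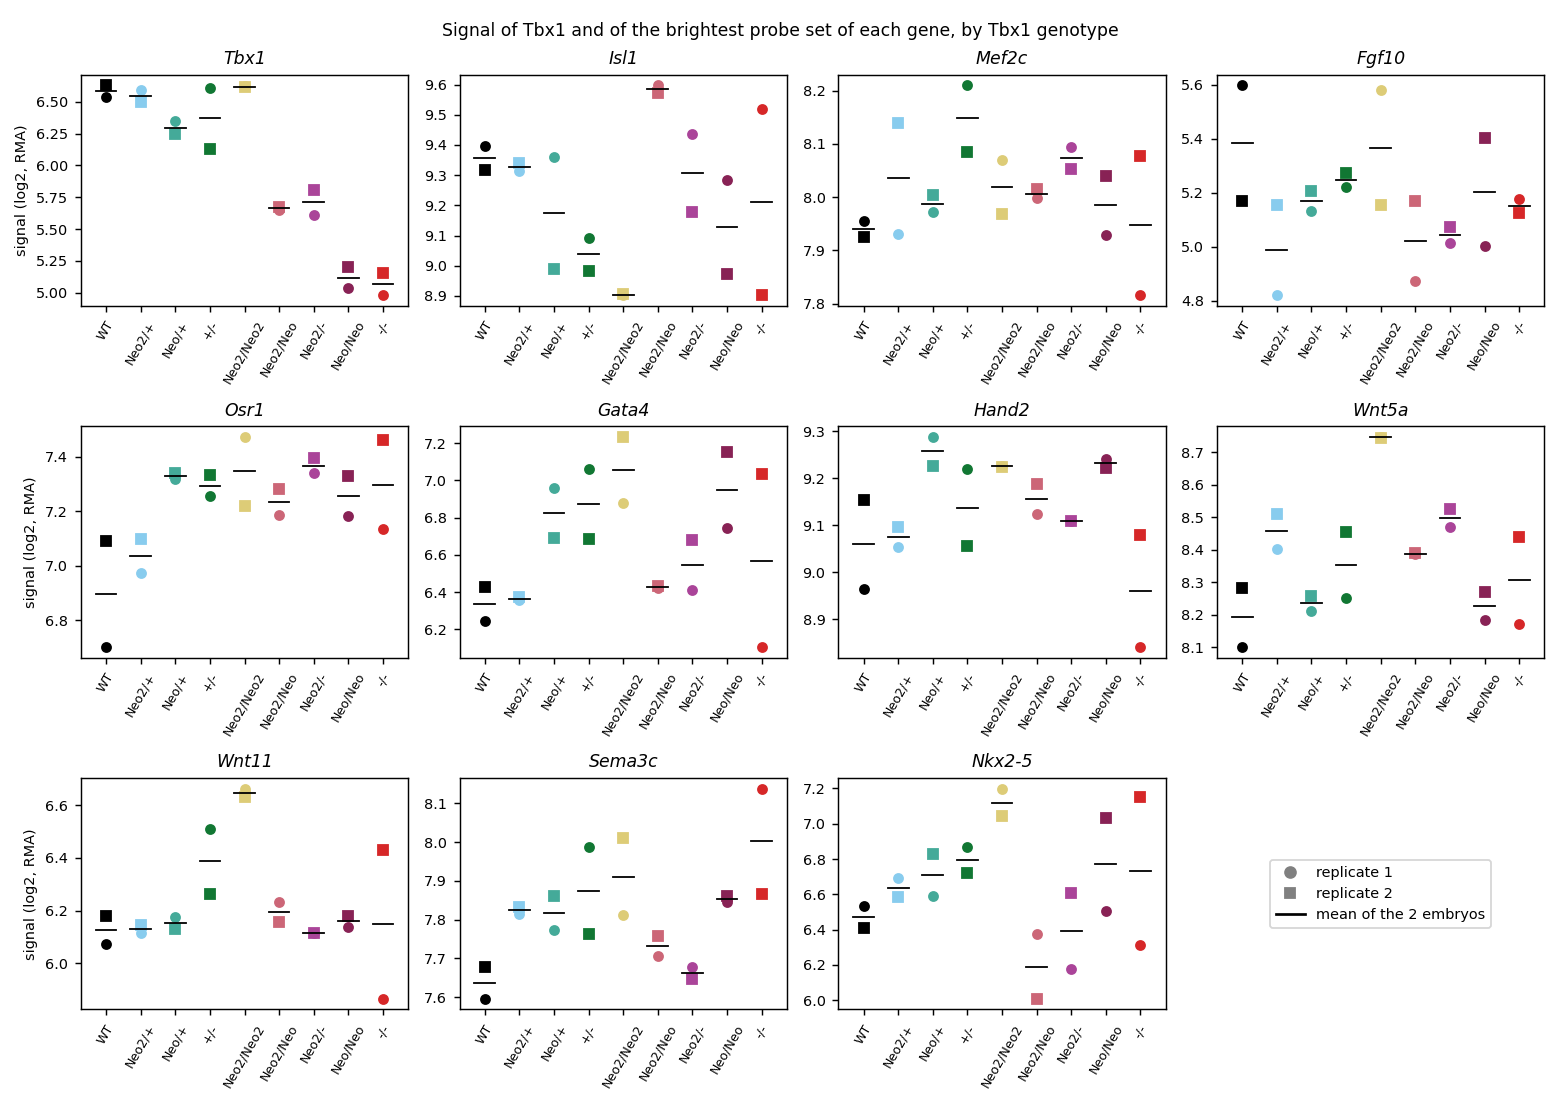
Signal (log2, RMA) of Tbx1 and of the brightest probe set of each gene in all 18 embryos, by genotype on the x axis, with circles for replicate 1, squares for replicate 2 and a bar at the mean of the 2 embryos. Mean Tbx1 lies between 6.30 and 6.62 in WT, the heterozygotes and Neo2/Neo2. It is 5.66 in Neo2/Neo, 5.71 in Neo2/-, 5.12 in Neo/Neo and 5.07 in -/-. The 2 -/- embryos lie far apart for Isl1, Gata4, Wnt11 and Nkx2-5.

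The first question was whether the genes follow the amount of Tbx1 transcript. No relation passed the test. In limma's regression of each probe set on the Tbx1 signal of the same embryo, 0 of the 22 probe sets passed an adjusted p of 0.05, where 0% of 45036 did, and 0 had an unadjusted p under 0.05, where 8.74% did. Slopes are in log2 units of the gene per log2 unit of Tbx1. Among the brightest probe sets the steepest were 0.13 (SE 0.07, adjusted p = 0.591) for Wnt11, which encodes a ligand of noncanonical Wnt signalling in the outflow tract, and 0.12 (SE 0.12, adjusted p = 0.743) for Nkx2-5, the cardiac homeobox gene. Osr1, an odd-skipped zinc finger gene of the posterior second heart field, had -0.09 (SE 0.07, adjusted p = 0.679). Isl1, the LIM homeobox gene that marks second heart field progenitors, had -0.07 (SE 0.09). Dimmer probe sets of Mef2c (the fourth in brightness) and of Isl1 had -0.13 (SE 0.09, adjusted p = 0.6268) and -0.13 (SE 0.08, adjusted p = 0.6249).

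The other slopes were 0.08 for Wnt5a and for Fgf10, 0.04 for Hand2, 0.03 for Mef2c and for Gata4 and -0.04 for Sema3c, with SEs from 0.04 to 0.13. Of the 10 slopes, 7 were above 0 and their median was 0.04, beside a median of 0.01 and 53% above 0 over all genes. Pearson's r with Tbx1 over the 18 embryos ran from -0.29 (Osr1; permutation p = 0.248) to 0.40 (Wnt11; permutation p = 0.104), and Spearman's rho was -0.20 (permutation p = 0.419) and 0.35 (permutation p = 0.161) for the same genes. These are 2 of 10 relations, and adjusted values are limma's above, over all probe sets. Without the 2 embryos farthest from the median Tbx1 signal, replicate 1 of -/- and of Neo/Neo, r was -0.47 for Osr1 and 0.22 for Wnt11. Without the 2 arrays that stood apart the slopes of Gata4, Mef2c and Hand2 turned to -0.13, -0.02 and -0.02.

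**Figure D2:**
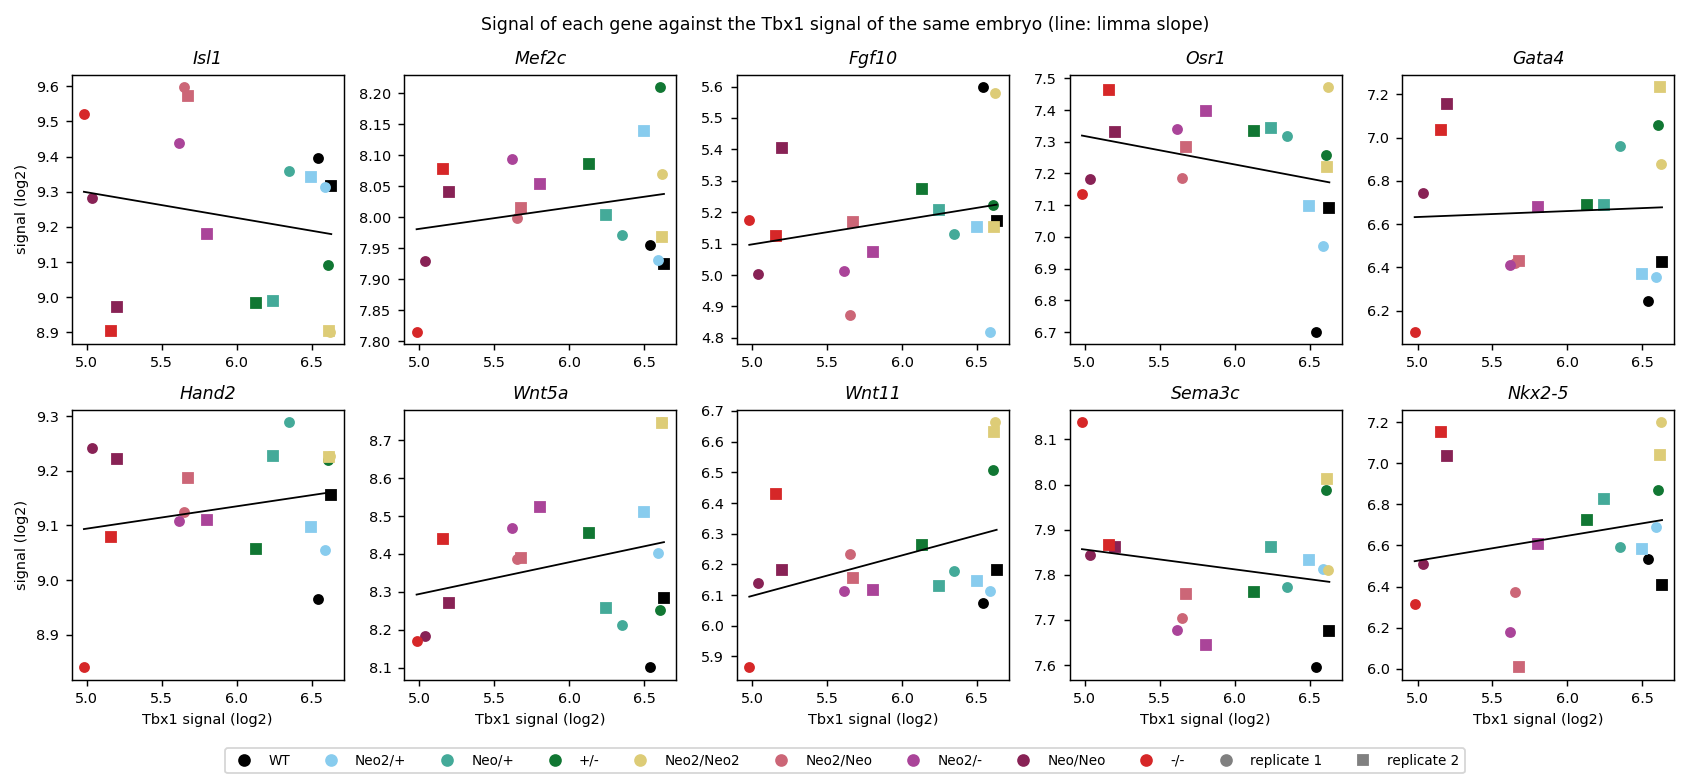
Signal of the brightest probe set of each gene (y, log2) against the Tbx1 signal of the same embryo (x, log2), 1 point per embryo coloured by genotype, with limma's slope as a line. Slopes run from -0.09 for Osr1 to 0.13 for Wnt11, and embryos at the left and right ends overlap in every panel.

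The second question was what embryos without a wild-type allele share. With 0 against 1 wild-type allele (10 against 6 embryos), limma called 0 of the 22 probe sets, where 0% of all did, and 0 had an unadjusted p under 0.05, where 4.53% did. The differences of the 10 genes lay between -0.07 for Nkx2-5 (SE 0.16, adjusted p = 0.956) and 0.08 for Wnt5a (SE 0.09, adjusted p = 0.904). Their median was 0.02, with 6 above 0 and 4 below. Over the same contrast Tbx1 had -0.77 (SE 0.22, adjusted p = 0.888). The embryos with 0 wild-type alleles include Neo2/Neo2, which had Tbx1 at the WT level. Since the contrast did not call Tbx1 itself, it cannot show that the members are unchanged.

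Each mutant genotype was then set against WT. All 8 comparisons share the 2 WT arrays. limma called 0 of the 22 probe sets in each of them. Of all probe sets it called 0% in Neo2/+ and in +/-, 0.00222% in each of Neo2/-, Neo2/Neo2 and Neo2/Neo, 0.0311% in Neo/+ and in -/-, and 0.0822% in Neo/Neo. At an unadjusted p under 0.05 the members stood at 2 in Neo2/+ (6.51% of all probe sets), 3 in Neo/+ (7.36%), 3 in +/- (11.7%), 2 in Neo2/Neo (6.72%), 3 in Neo2/- (6.28%), 3 in Neo/Neo (7.01%) and 5 in -/- (15.1%). Neo2/Neo2 had 13 of 22, 12 higher and 1 lower, where 11.6% of all probe sets had such a p (6.03% higher and 5.59% lower). The probe sets of 1 gene are not independent, and by brightest probe set these were 7 of the 10 genes. The median difference of the 10 genes from WT was 0.36 in Neo2/Neo2, beside 0.04 over all genes, and between 0.04 and 0.22 in the other genotypes. The arrays labelled Neo2/Neo2 had a Tbx1 signal at the WT level, so this signal does not check their label, and each result for Neo2/Neo2 below rests on the label as given.

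**Figure D3:**
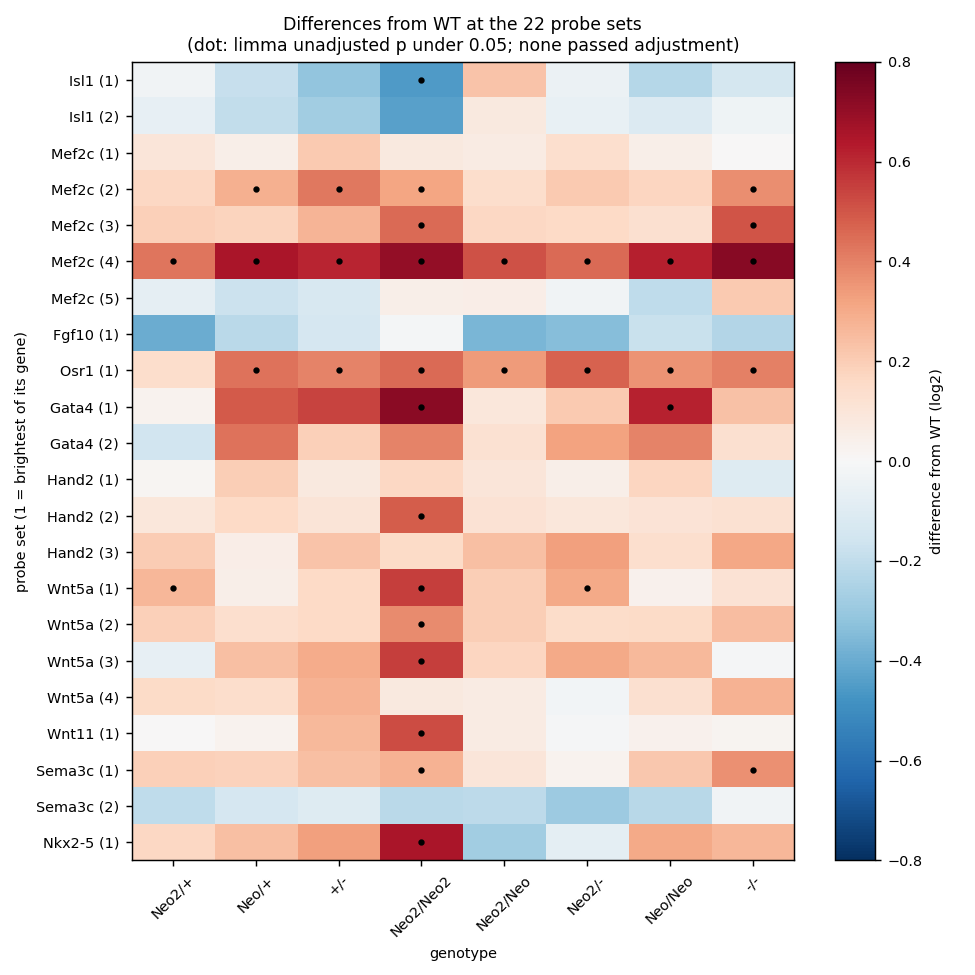
Difference from WT (colour, log2) for the 22 probe sets in rows, numbered from the brightest of each gene, and the 8 mutant genotypes in columns, with a dot at an unadjusted p under 0.05 in limma. The Neo2/Neo2 column holds 13 dots, the -/- column 5 and no other column more than 3, and no difference passed adjustment.

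On the Neo2/Neo2 arrays Wnt5a, a noncanonical Wnt ligand that the second heart field needs to deploy into the outflow tract, had 8.75 and 8.74. WT had 8.10 and 8.28, and every other embryo lay between 8.17 and 8.52, so both Neo2/Neo2 embryos were above all others. The share of all probe sets with such a separation was not counted, here or for Wnt11 below. The difference from WT was 0.55 (SE 0.11, 1.47-fold, n = 2 against 2, limma adjusted p = 0.169). The next probe sets of Wnt5a in order of brightness had 0.38 and 0.55, and the dimmest had 0.08.

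Wnt11 showed the same step. Its signal was 6.66 and 6.63 on the Neo2/Neo2 arrays, 6.07 and 6.18 in WT, and 6.51 and 6.26 in +/-. The remaining embryos lay between 5.86 and 6.43, and both of those ends were -/- embryos. The difference of Neo2/Neo2 from WT was 0.52 (SE 0.15, 1.43-fold, adjusted p = 0.231).

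Without the 2 arrays that stood apart, limma called 4 member probe sets in Neo2/Neo2 against WT, where 2.02% of all were called. They were those of Wnt5a (adjusted p = 0.0225), Wnt11 (adjusted p = 0.0212) and Gata4 (adjusted p = 0.0481), and the fourth of Mef2c (adjusted p = 0.0343). With all 18 arrays their adjusted p-values ran from 0.169 to 0.304. The Neo2/Neo2 and WT embryos differed in sex. With embryo sex in the fit the differences were 0.49 (SE 0.13) for Wnt5a, 0.57 (SE 0.18) for Wnt11 and 0.68 (SE 0.31) for Gata4, with adjusted p-values of 0.714, 0.757 and 0.781.

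The test of any difference between the 9 genotypes called 0 of the 22 probe sets, where 0.275% of all were called. At an unadjusted p under 0.05 it held 4, where 13.7% of all did. Wnt5a had an adjusted p of 0.203 and Wnt11 of 0.355. Without the 2 arrays that stood apart these became 0.0430 and 0.0271, where 2.77% of all probe sets were called, and over all alternatives they ran from 0.0328 to 0.594 and from 0.0210 to 0.842. Leaving out +/- replicate 2 or -/- replicate 2 also brought calls among the members. Each of these fits left an array that stood apart as the only embryo of its genotype, so no result is read from them.

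Among the transcription factors, Nkx2-5 had the widest range of genotype means. Its signal was 7.20 and 7.04 on the Neo2/Neo2 arrays, 6.37 and 6.01 in Neo2/Neo, 6.53 and 6.41 in WT, and 6.31 and 7.15 in -/-. Neo/Neo embryos had 6.51 and 7.03, Neo2/- embryos 6.18 and 6.61, +/- embryos 6.87 and 6.72, Neo/+ embryos 6.59 and 6.83, and Neo2/+ embryos 6.69 and 6.58. The -/- embryos were 0.84 apart and the Neo/Neo embryos 0.53, within a range of 1.19 over all 18, and only 1 of the 8 steps between neighbouring genotype means, that from +/- to Neo2/Neo2 (0.32), was larger than the SD within genotypes (0.28). The difference from WT was 0.65 (SE 0.25, adjusted p = 0.343) in Neo2/Neo2, -0.28 (SE 0.25) in Neo2/Neo and 0.26 (SE 0.25) in -/-.

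Isl1 ran the other way. It had 8.90 and 8.91 on the Neo2/Neo2 arrays, 9.60 and 9.57 in Neo2/Neo, 9.39 and 9.32 in WT, and 9.52 and 8.90 in -/-. Neo2/- embryos had 9.44 and 9.18, Neo/Neo embryos 9.28 and 8.97, Neo/+ embryos 9.36 and 8.99, +/- embryos 9.09 and 8.98, and Neo2/+ embryos 9.31 and 9.34. Neo2/Neo embryos were thus the highest, and Neo2/Neo2 embryos and 1 -/- embryo the lowest. The difference from WT was -0.45 (SE 0.18, adjusted p = 0.365) in Neo2/Neo2 and 0.23 (SE 0.18, adjusted p = 0.901) in Neo2/Neo. The dimmer probe set of Isl1 followed the brighter one over the 18 arrays (r = 0.87) and had -0.44 in Neo2/Neo2.

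Gata4, a zinc finger factor of the heart and of foregut and other endoderm, had 6.24 and 6.42 in WT and 6.88 and 7.23 on the Neo2/Neo2 arrays (difference 0.72, SE 0.25, 1.65-fold, adjusted p = 0.304). Neo/Neo embryos had 6.75 and 7.15 (difference 0.62, SE 0.25, adjusted p = 0.648), and -/- embryos 6.10 and 7.03. The 2 -/- embryos held the lowest value of the series and one near its top, a gap of 0.93 that was larger than the range of all genotype means (0.72). No step between neighbouring genotypes exceeded the SD within genotypes (0.29). The dimmer probe set of Gata4 had smaller differences, 0.40 in Neo2/Neo2 and in Neo/Neo (SE 0.28 each, limma adjusted p = 0.633 and 0.884).

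Osr1 had its lowest genotype mean in WT, at 6.70 and 7.09, and lay between 6.97 and 7.47 in the 16 mutant embryos. Its difference from WT was above 0 in all 8 genotypes, from 0.14 in Neo2/+ to 0.47 in Neo2/- (SE 0.14 each), with adjusted p-values from 0.222 to 0.956. WT replicate 1 was the lowest embryo of the series, and without it the differences were from 0.14 to 0.28 in the 7 other genotypes and -0.06 in Neo2/+. Neo2/+ overlapped WT, and the step from Neo2/+ to Neo2/Neo (0.20) was the only one between neighbours above the SD within genotypes (0.15).

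Mef2c, a MADS box gene with an enhancer active in the anterior second heart field, differed by probe set. The brightest one had differences from WT between 0.01 in -/- and 0.21 in +/- and an SD over the 18 arrays of 0.09, and 8.5% of all genes had a lower one. The second in brightness had differences from 0.14 in Neo2/Neo to 0.42 in +/-, and the third from 0.13 in Neo/Neo to 0.50 in -/-. The dimmest ran from -0.20 in Neo/Neo to 0.21 in -/-. The fourth in brightness was at 5.51 and 5.84 in WT and between 5.98 and 6.48 in all 16 mutant embryos, so the groups did not overlap. It was the only one of the 22 probe sets of which this was true, where 0.815% of all probe sets lay above both WT arrays in this way. Its WT mean of 5.67 lay below every array median, so its level in WT cannot be told from background. Its differences from WT ran from 0.43 in Neo2/+ to 0.73 in -/- (SE 0.14 each), with limma adjusted p-values from 0.0874 in -/- to 0.782 in Neo2/-, and an unadjusted p under 0.05 in each of the 8 genotypes. Its -/- difference was 0.89 without WT replicate 2 and 0.66 without -/- replicate 2, each with 1 embryo left in the genotype that lost an array. It followed the brightest probe set weakly over the arrays (r = 0.17).

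Hand2, a basic helix-loop-helix gene of the right ventricle, outflow tract and arches, was even across the series at its brightest probe set, with genotype means from 8.96 in -/- to 9.26 in Neo/+. Its difference from WT was -0.10 (SE 0.10, adjusted p = 0.716) in -/-, where the embryos had 8.84 and 9.08, and 0.02 without replicate 1 of -/-. A dimmer Hand2 probe set had 0.49 in Neo2/Neo2 (SE 0.19, adjusted p = 0.343).

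Of the remaining ligands, Sema3c, a semaphorin that guides neural crest cells into the outflow tract, had its lowest genotype mean in WT, at 7.60 and 7.68, and its highest in -/-, at 8.14 and 7.87. The -/- difference was 0.37 (SE 0.11, 1.29-fold, limma adjusted p = 0.185). It was 0.50 without -/- replicate 2, and 0.23 without -/- replicate 1, the array that stood apart. The other Sema3c probe set had -0.03 in -/-. In Neo2/Neo2 it had -0.21, where the brighter one had 0.28, so the 2 disagreed in sign in both genotypes. Fgf10, the ligand gene that first defined the anterior second heart field, was dim, at 4.82 to 5.60, and below the median probe set. Its differences from WT were below 0 in all 8 genotypes, from -0.40 in Neo2/+ (SE 0.19, adjusted p = 0.773) to -0.02 in Neo2/Neo2. The WT embryos had 5.60 and 5.17, and without WT replicate 1 the difference became 0.20 in Neo2/Neo2, 0.08 in +/- and 0.03 in Neo/Neo. With each array centred on its median it was 0.05 in Neo2/Neo2.

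For 8 of the 10 genes the widest gap between replicates was that of the -/- embryos, which held for 30.2% of all genes, and replicate 1 of -/- is one of the arrays that stood apart. SDs over the 18 arrays ranged from 0.09 for Mef2c to 0.33 for Nkx2-5 and for Gata4, beside a median of 0.16 over all probe sets.

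Correlations between the genes are given here as descriptions over the same 18 arrays, without a test. Of the 45 pairs of brightest probe sets, 30 correlated above 0 and 15 below, with a median r of 0.29. The strongest pair was Isl1 with Nkx2-5, which ran opposite to each other (r = -0.91, rho = -0.93). That r was -0.89 without the 2 embryos farthest from the median Isl1 signal and -0.91 without the 2 arrays that stood apart. On deviations from the genotype means it was -0.85. The gaps between replicates were widest in -/-, at 0.62 for Isl1 and 0.84 for Nkx2-5. In WT, +/- and Neo2/Neo the embryo higher in Isl1 was also higher in Nkx2-5, so the opposite run did not hold within every genotype. Of 18192 genes, Nkx2-5 had rank 9 from the most negative r with Isl1, and Isl1 had rank 5 with Nkx2-5.

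Gata4, Nkx2-5 and Wnt11 varied together, with r = 0.75 for Gata4 with Nkx2-5, 0.73 for Gata4 with Wnt11 and 0.70 for Wnt11 with Nkx2-5. Isl1 ran against each of them, at -0.78 with Gata4 and -0.67 with Wnt11. Hand2 followed Gata4 (r = 0.70, and 0.60 without the 2 arrays that stood apart). Fgf10 had no r above 0.38 with another gene. Sema3c had none above 0.32 over all 18 arrays, but without the 2 arrays that stood apart it had 0.70 with Gata4, 0.61 with Nkx2-5, 0.56 with Wnt11 and 0.52 with Hand2, and -0.60 with Isl1 (-0.27 over all arrays).

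**Figure D4:**
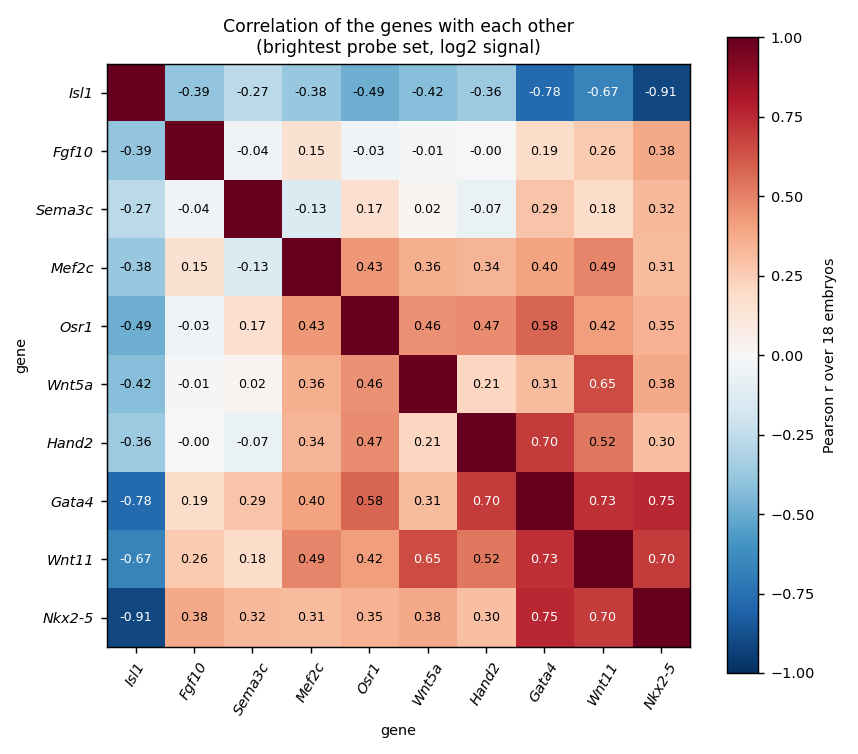
Pearson's r over 18 embryos (colour and printed value) between the brightest probe sets of the 10 genes. Isl1 is below 0 with each of the other 9 genes, down to -0.91 with Nkx2-5, and Gata4, Wnt11 and Nkx2-5 form a block at 0.70 to 0.75.

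Genes whose pattern was most like that of a member were taken by Pearson's r among 18188 genes. For Isl1 they were Dcx (r = 0.96), which encodes a microtubule protein of young neurons, and Hes6 (r = 0.95), a gene of neurogenesis. For Nkx2-5 they were Nebl (r = 0.94), which encodes a cardiac nebulin-like protein, and Prdm6 (r = 0.92). Wnt11 was most like the homeobox gene Gbx2 and Pnpla2 (r = 0.91 and 0.90), Gata4 like Cldn7 and Pdlim5 (r = 0.92 and 0.90) and Osr1 like Rspo3 and Klf10 (r = 0.88 and 0.85). Wnt5a was most like Ercc3 and Abhd17c, Hand2 like Tnip1 and Arhgap35, and Sema3c like Ecscr and Amz2, all at 0.85 to 0.87. Mef2c was most like Dennd6b and Man1c1, both at 0.81, and Fgf10 like Gm36723 and Zp2 at 0.81 and 0.77.

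Markers of other cell types that the embryo holds moved with several members. A list score is the mean log2 deviation of the list's genes from their own means over the 18 arrays. The motor neuron and cranial ganglion list, 11 of 12 listed genes with a probe set and Isl1 not among them, scored -0.32 and -0.35 on the Neo2/Neo2 arrays, 0.29 and 0.43 in Neo2/Neo, 0.10 and 0.08 in WT, and 0.08 and -0.30 in -/-. Isl1 followed that score (r = 0.90, and 0.84 on deviations from genotype means), and it followed the neural progenitor and neuron list of 12 genes at r = 0.81. Nkx2-5 ran against the motor neuron list (r = -0.90) and the neural progenitor and neuron list (r = -0.81). Such relations were not limited to neural lists. The primitive erythroid list had r = 0.70 with Isl1 and -0.71 with Nkx2-5.

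The cardiomyocyte list of 16 genes scored 0.35 and 0.26 on the Neo2/Neo2 arrays, -0.16 and -0.27 in Neo2/Neo, -0.01 and -0.11 in WT, and -0.45 and 0.38 in -/-. Nkx2-5 followed it at r = 0.78, and at 0.98 without the 2 arrays that stood apart, while Isl1 had -0.75 and -0.90. Wnt5a and Osr1 followed the limb bud list of 12 genes (r = 0.79 and 0.72), which scored from -0.29 to 0.18. Hand2 had 0.48 with that list (0.26 without the 2 arrays that stood apart) and Fgf10 had -0.13. The part of these cell populations in the differences between embryos was not tested.

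**Figure D5:**
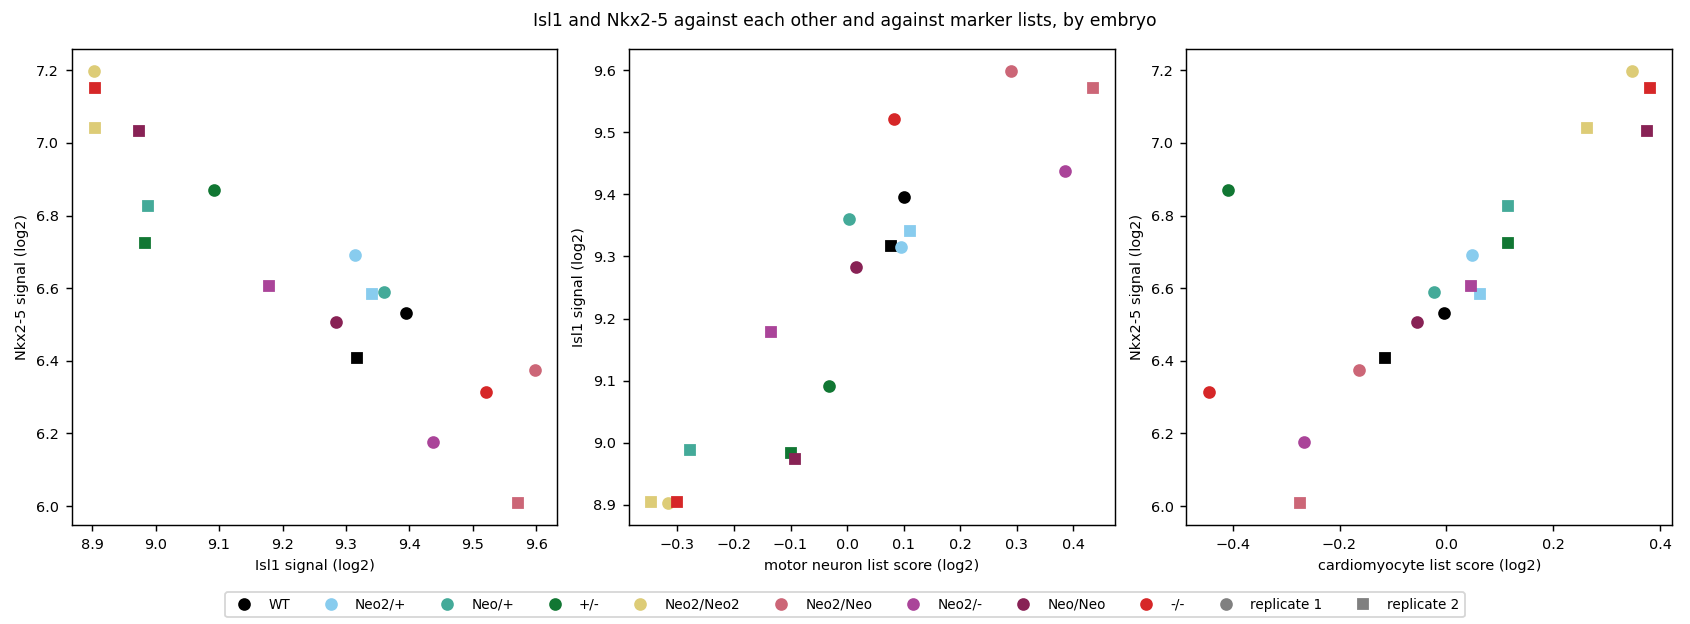
Left, Nkx2-5 against Isl1 (both log2 signal); middle, Isl1 against the motor neuron list score; right, Nkx2-5 against the cardiomyocyte list score, 1 point per embryo coloured by genotype, with circles for replicate 1 and squares for replicate 2. Neo2/Neo2 embryos and -/- replicate 2 lie at the low Isl1 and high Nkx2-5 end (Isl1 8.90 to 8.91), Neo2/Neo embryos and -/- replicate 1 at the other.

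Other genes of the second heart field were read in the same way. They comprised 16 ligands, 21 receptors and coreceptors and 38 transcription and chromatin factors besides Tbx1, 75 genes in all by brightest probe set. limma called 0 of them in each of the 8 comparisons with WT, in the slope on Tbx1, in 0 against 1 wild-type allele and in the test of any difference. At an unadjusted p under 0.05 there were 9 of 75 on the slope (6 higher with more Tbx1 and 3 lower), where 8.74% of all probe sets had such a p, and 3 of 75 with 0 against 1 wild-type allele (2 higher and 1 lower), where 4.53% did. The counts against WT were 19 in Neo2/Neo2 (15 higher and 4 lower), where 11.6% of all probe sets had such a p, 13 in -/- (5 higher and 8 lower), where 15.1% did, and 11 in +/-, where 11.7% did. They were 4 to 9 in the other genotypes, where 6.28% to 7.36% of all did. In the test of any difference there were 21, where 13.7% of all did. These shares are over all probe sets, dim ones included, while each of the 75 genes was read at its brightest. Counts and shares are thus not matched for signal.

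Among the factors, those with the smallest p on the Tbx1 slope were Nkx2-6, a pharyngeal relative of Nkx2-5 (0.13, SE 0.05), and Ldb1, a cofactor of LIM homeodomain proteins such as Isl1 (0.13, SE 0.05), on the higher side, and Zfpm2, a cofactor of Gata4 (-0.21, SE 0.07), and Osr2 (-0.16, SE 0.07) on the lower. Their limma adjusted p-values were 0.553 to 0.558. Among the ligands Wnt3a had 0.21 (SE 0.10), Wnt2 0.21 (SE 0.11) and Vegfa -0.07 (SE 0.04). Among the receptors the Wnt receptor genes Fzd7 and Fzd2 had 0.22 (SE 0.11) and 0.15 (SE 0.07), and the BMP receptor gene Bmpr1a and the chemokine receptor gene Cxcr4 had -0.19 (SE 0.08) and -0.12 (SE 0.07).

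With 0 against 1 wild-type allele the leading genes were Osr2 (0.26, SE 0.08) and Msx2 (0.25, SE 0.14) on the higher side and Srf (-0.18, SE 0.09) and Ldb1 (-0.13, SE 0.07) on the lower among the factors. Among the ligands they were Wnt8a (-0.26, SE 0.07), Wnt2 (-0.23, SE 0.15), the Wnt inhibitor gene Dkk1 (0.10, SE 0.08) and Vegfa (0.06, SE 0.06). Among the receptors they were Cxcr4 (0.22, SE 0.08), Bmpr1a (0.21, SE 0.11), the semaphorin receptor gene Plxnd1 (-0.23, SE 0.17) and Smo (-0.10, SE 0.06). None passed, with adjusted p-values from 0.888 to 0.903.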

How the data were processed

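RNA of 18 whole embryos was hybridised after biotin labelling of 6 ug total RNA per array. The deposited values are log2 signals per probe set, for which the submitters' processing notes name RMA and the package affy and the sources used here give no version. RMA corrects background, equalises distributions between arrays and summarises probes by median polish. No further normalization or filter was applied. The annotation gave 1 symbol to 34945 of 45037 probe sets, and the brightest probe set (highest mean over 18 arrays) stood for a gene.

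limma 3.58.1 in R 4.3.3 (lmFit, eBayes, two-sided, Benjamini-Hochberg over all probe sets, threshold 0.05) fitted 9 genotype means (9 residual and 3.63 prior degrees of freedom), a regression on the Tbx1 signal, and 3 means by number of wild-type alleles (10, 6 and 2 arrays). SE is limma's moderated standard error. Permutation tests used 100000 resamples. The fits were tested on simulated data.

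The genes, lists and alternatives were chosen with earlier results of these data known. By the naming rule, all members are named, with the pathway genes of smallest p (2 per direction and list) and the 2 genes most like each member. Array centring, a filter on dim probe sets, an intensity trend, array weights, a replicate block, embryo sex, probe set averaging and leaving out arrays were tried as alternatives. Probe sets with several symbols were left out, and some listed genes were not analysed here.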

Additional observations from a re-analysis of the deposited data

Results flagged for a closer look

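Among 22 groups of embryos (Tbx1 and the 10 genes, by 0 or 1 wild-type allele), 2 held an embryo far from the others by Dixon's test, which chance gives in about 5% of groups. Hand2 had 8.84 in replicate 1 of -/-, while the nearest of the other 9 embryos without a wild-type allele had 9.08. That array is one of those that stood apart. Fgf10 had 4.82 in replicate 1 of Neo2/+, while the nearest of the other 5 embryos with 1 wild-type allele had 5.13.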

How the results depend on the processing

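Member probe sets called stayed at 0 in 278 of 286 combinations of comparison and alternative. In the test of any difference between genotypes the count was 1 with array weights (2.96% of all probe sets called), 2 without the 2 arrays that stood apart (2.77%), and from 0 to 2 when single arrays were left out (2 without +/- replicate 2, with 10.6% of all called, and 2 without -/- replicate 2, with 6.77%). Without the 2 arrays that stood apart it was 4 in Neo2/Neo2 against WT (2.02% of all). A fit without a single array leaves 1 embryo in that genotype, and without +/- replicate 2 or -/- replicate 2 this is an array that stood apart. Leaving out single arrays gave from 0 to 2 in -/- against WT (1 without WT replicate 2, with 0.209% of all called, and 2 without -/- replicate 2, with 11.4%) and from 0 to 1 in +/- against WT, where the second probe set of Mef2c had 0.54 (adjusted p from limma 0.0188) without +/- replicate 2, in a fit that called 11.2% of all probe sets. Of 2690 recomputed differences and slopes of the genes, 92 changed sign, in 42 of the results, and 0 of these 92 passed the test. With array weights the values that changed sign were, for 0 against 1 wild-type allele Hand2 0.021, for the slope on Tbx1 Gata4 -0.10 and Hand2 -0.018. With arrays centred on their medians the values that changed sign were, for 0 against 1 wild-type allele Hand2 0.012 and Sema3c 0.025, for Neo2/Neo2 Fgf10 0.047, for Neo2/- Wnt11 0.021. With embryo sex in the fit the values that changed sign were, for Neo2/- Wnt11 0.012, for Neo/Neo Wnt5a -0.030. With all probe sets of a gene averaged the values that changed sign were, for 0 against 1 wild-type allele Mef2c 0.029 and Hand2 0.039, for the slope on Tbx1 Mef2c -0.038 and Gata4 -0.011, for Neo2/+ Gata4 -0.061 and Sema3c -0.0067, for Neo2/Neo Sema3c -0.057, for Neo2/- Sema3c -0.13, for Neo/Neo Sema3c -0.0024, for -/- Hand2 0.11. Without both Neo2/Neo2 arrays the values that changed sign were, for 0 against 1 wild-type allele Fgf10 -0.030, Gata4 -0.065 and Wnt11 -0.069, for the slope on Tbx1 Gata4 -0.069. Without the 2 arrays farthest from the median Tbx1 signal the values that changed sign were, for the slope on Tbx1 Mef2c -0.025, Gata4 -0.088 and Sema3c 0.030. Without the 2 arrays that stood apart the values that changed sign were, for 0 against 1 wild-type allele Isl1 -0.0023, Mef2c 0.0010 and Hand2 0.025, for the slope on Tbx1 Mef2c -0.021, Gata4 -0.13 and Hand2 -0.019, for +/- Hand2 -0.0039, for -/- Hand2 0.019. With single arrays left out, the values that changed sign had the following ranges. For 0 against 1 wild-type allele they were Fgf10 -0.040 to 0.054, Gata4 -0.045 to 0.10, Hand2 -0.041 to 0.013, Wnt11 -0.016 to 0.087 and Sema3c -0.041 to 0.023. For the slope on Tbx1 they were Gata4 -0.081 to 0.10, Hand2 -0.011 to 0.069 and Sema3c -0.069 to 0.014. For Neo2/+ they were Isl1 -0.067 to 0.011, Mef2c -0.0098 to 0.20, Osr1 -0.056 to 0.33, Gata4 -0.062 to 0.12, Hand2 -0.079 to 0.11 and Wnt11 -0.052 to 0.057. For Neo/+ they were Isl1 -0.37 to 0.0037, Wnt5a -0.047 to 0.13 and Wnt11 -0.028 to 0.081. For +/- they were Fgf10 -0.35 to 0.077 and Hand2 -0.017 to 0.17. For Neo2/Neo2 they were Fgf10 -0.23 to 0.20. For Neo2/- they were Isl1 -0.18 to 0.082, Hand2 -0.046 to 0.14, Wnt11 -0.066 to 0.042, Sema3c -0.015 to 0.067 and Nkx2-5 -0.29 to 0.14. For Neo/Neo they were Mef2c -0.011 to 0.10, Fgf10 -0.40 to 0.033, Wnt5a -0.056 to 0.13 and Wnt11 -0.021 to 0.087. For -/- they were Isl1 -0.45 to 0.16, Mef2c -0.12 to 0.14, Gata4 -0.23 to 0.70, Hand2 -0.22 to 0.019, Wnt5a -0.021 to 0.25, Wnt11 -0.26 to 0.30 and Nkx2-5 -0.16 to 0.68. The cause of these changes was not tested. The replicate block left 0 member probe sets called in each comparison. Same-numbered embryos showed little common deviation (correlations from -0.26 to 0.19 over 36 pairs of genotypes, 9 of them over 0.1). With 2 embryos per genotype, and both arrays that stood apart labelled replicate 1, this cannot exclude that the numbers pair embryos. The 2 embryos per genotype limit the precision, and dim probe sets carry no detection call.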

Other observations

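The marker lists placed the 2 -/- embryos apart. Replicate 1 scored -0.45 on the cardiomyocyte list, -0.51 on the endothelial list and -0.59 on the list of second heart field receptors, the lowest of the series on each, while replicate 2 scored 0.38, 0.17 and 0.00. On the primitive erythroid list they scored 0.32 and -0.48. On the neural progenitor and neuron list the Neo2/Neo2 embryos scored -0.61 and -0.53, beside -0.61 in -/- replicate 2 and -0.46 in Neo/+ replicate 2. The Neo2/Neo embryos scored 0.68 and 0.69, the highest of the series. On the erythroid list the Neo2/Neo2 embryos scored -0.11 and -0.49 and the Neo2/Neo embryos 0.41 and 0.36. The intermediate mesoderm list scored 0.31 and 0.33 in Neo2/Neo and -0.10 and -0.07 on the Neo2/Neo2 arrays.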
